A study of Mus musculus with 4 samples.

Results

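Small Rab GTPases are molecular switches of membrane traffic that cycle between a GTP-bound form on a vesicle membrane and a GDP-bound form in the cytosol. Guanine nucleotide exchange factors (GEFs) switch them on, GTPase-activating proteins (GAPs) switch them off, and the active form recruits effectors such as tethers and motor adaptors. Each Rab marks its own compartment, and in lung immune and epithelial cells they are known for phagosome maturation, granule release, mucin and surfactant secretion and receptor recycling. Rab44, the gene knocked out in this study, is a large Rab with additional domains and was left out of the family described here. The family was taken as every gene of the deposited table whose symbol is Rab followed by a number, at most 1 letter and at most 1 more digit. This rule used names alone and found 58 of the 41079 genes. The functional annotation in the table gave GTPase activity and GTP binding to all 58, and Golgi apparatus to 39, phagocytic vesicle to 20, early endosome to 14, lysosome to 14 and secretory granule to 7. The 58 genes lie on 18 chromosomes, with 6 each on chromosomes 9 and 17.

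Lung RNA was compared between wild-type (WT) mice and CRISPR/Cas9-edited Rab44-knockout (Rab44-KO) mice, female littermates on a C57BL/6 background aged 8 to 14 weeks, under normal and OVA-induced conditions. Under OVA-induced conditions, mice of both genotypes were sensitised with 100 μg ovalbumin (OVA, an egg white allergen) and alum by intraperitoneal injection on days 0, 7 and 14. They then received 100 μg OVA in 50 μL into the nose from day 17 to day 20, and lungs were taken on day 21. Normal WT and normal Rab44-KO mice are labelled as untreated, but a PBS challenge stands in the protocol as well. Each of the 4 groups is 1 library, and how many mice went into it is not given. No difference below therefore has a replicate check, no p-value was computed, and each comparison is between libraries, not conditions. The intervals given are 95% counting intervals only. Whole-lung RNA cannot separate fewer cells of a type from less RNA per cell.

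The libraries held 18112901 to 19910236 counts. Rab44 itself had 251 and 810 counts in the WT libraries (normal, then OVA-induced) and 1 and 0 in the Rab44-KO libraries, which follows the genotype labels. Marker genes of alveolar type 2 cells summed to 19159 to 31709 CPM (counts scaled to library size by the TMM method) and those of club cells to 22597 to 33861 CPM, so the lung label fits its cells. Several other marker sums differed between the OVA-induced libraries. Values are listed with the normal libraries first and WT before Rab44-KO within each condition. The 6 type 2 macrophage markers summed to 413, 381, 7681 and 995 CPM, the 8 monocyte and interstitial macrophage markers to 289, 292, 686 and 332 CPM, and the 10 T cell markers to 86.0, 85.1, 193 and 89.2 CPM. The 8 goblet cell markers summed to 70.7, 76.8, 2073 and 67.0 CPM, the 8 endothelial markers to 4954, 4829, 3725 and 5633 CPM, and the 8 heart muscle markers to 767, 848, 337 and 758 CPM. The 10 eosinophil markers summed to 113, 112, 263 and 144 CPM, with Epx, the eosinophil peroxidase gene, at 0, 0, 1 and 0 counts. The part of these cell types in the values below was not tested.

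The genes lowest in the OVA-induced Rab44-KO library relative to WT included Rab19, Rab32, Rab9 and Rab4b, and the reference sequence just before their start sites is shown to place these genes in the genome. The sequences are from the RefSeq promoter table on GRCm38.p6. Of its 250 bases before each RefSeq start, only those that also precede the GENCODE start are printed, on the strand of the gene, from 5′ to 3′. Capitals mark matches, on either strand, to 5 motifs: CACGTG (the CLEAR and E-box core of lysosomal genes), TTCNNNNGAA and TTCNNNGAA (STAT6 and other STAT sites), GAGGAA (an ETS core such as that of PU.1) and TATAAA (the TATA box). No match overlapped another in these 4 sequences.
Rab32, chr10:10558266-10558457, minus strand, 192 bases: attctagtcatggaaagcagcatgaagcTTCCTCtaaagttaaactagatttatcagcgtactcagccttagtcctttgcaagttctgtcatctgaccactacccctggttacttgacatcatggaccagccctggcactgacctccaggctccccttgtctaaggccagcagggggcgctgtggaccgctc
Rab19, chr6:39381103-39381174, plus strand, 72 bases: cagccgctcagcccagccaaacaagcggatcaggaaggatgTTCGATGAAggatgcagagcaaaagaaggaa
Rab9, chrX:166479868-166480117, minus strand, 250 bases: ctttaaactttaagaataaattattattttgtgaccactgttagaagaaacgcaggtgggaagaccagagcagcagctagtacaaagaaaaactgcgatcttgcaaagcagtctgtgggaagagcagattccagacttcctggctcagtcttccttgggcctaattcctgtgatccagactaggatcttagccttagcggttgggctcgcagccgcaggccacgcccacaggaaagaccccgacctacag
Rab4b, chr7:27178897-27179133, minus strand, 237 bases: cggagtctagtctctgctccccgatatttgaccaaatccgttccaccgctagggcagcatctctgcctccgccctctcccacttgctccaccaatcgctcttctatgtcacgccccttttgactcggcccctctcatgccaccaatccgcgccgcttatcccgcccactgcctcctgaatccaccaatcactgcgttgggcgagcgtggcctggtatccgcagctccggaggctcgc

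The printed stretch of Rab32 held 1 match, to GAGGAA, and that of Rab19 1 match, to TTCNNNGAA. No motif match was found in the stretches of Rab9 and Rab4b, which says only that these letters are not in those windows. Across the family, 48 genes had 60 promoters in the table. These were richer in GC than all 32851 promoters, with a median of 60.2% against 52.4% GC and 15 against 6 CpG dinucleotides in 250 bases. GAGGAA occurred in 13.3% of the family's promoters and 23.3% of all, TTCNNNGAA in 8.33% and 7.02%, TTCNNNNGAA in 3.33% and 5.85%, CACGTG in 8.33% and 6.02% and TATAAA in 6.67% and 12.4%.

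Levels within the family can be compared per transcript length as TPM, the authors' abundance scaled to a fixed sum. The genes spanned from hardly detected to 316 TPM in a library. By mean TPM over the 4 libraries, 11 genes were at 100 or more, 31 between 10 and 100 and 16 under 10. The highest was Rab7, which drives late endosome to lysosome transport, at 303, 306, 272 and 316 TPM (normal WT and Rab44-KO, then OVA-induced WT and Rab44-KO, the order kept below). Rab5c, which drives early endosome fusion, followed at 271, 240, 236 and 253 TPM. Rab1a, which carries cargo from the ER to the Golgi, stood at 218, 210, 202 and 226 TPM and its paralog Rab1b at 193, 188, 197 and 172 TPM. Rab2a, another ER to Golgi Rab, had 178, 177, 148 and 182 TPM. Rab7 led in every library and did not overlap Rab5c, while Rab1b stood above Rab2a in 3 of the 4 libraries and below it in OVA-induced Rab44-KO lungs. At the other end, Rab9b had 0, 3, 2 and 0 counts, at or under the floor of 3 counts in each library. It is given no fold and enters only the check with a minimum of 1 count. Rab33a, Rab26 and Rab3b had at most 12, 16 and 13 counts.

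**Figure D1:**
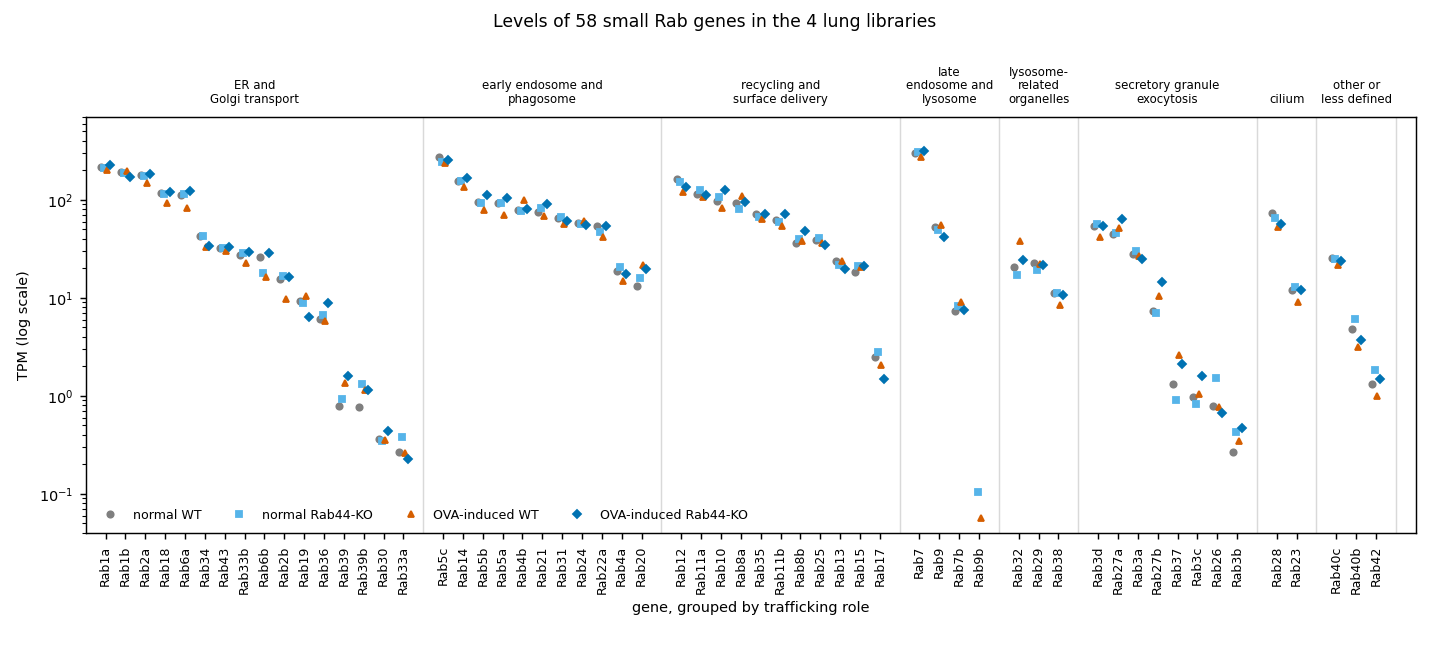
Levels of the 58 small Rab genes in TPM (log scale) in each library, grouped by trafficking role and ordered by mean TPM within a role, 1 point per library; libraries at 0 (Rab9b in normal WT and OVA-induced Rab44-KO) are not drawn. Rab7, Rab5c, Rab1a, Rab1b and Rab2a were the highest, and the points of a gene mostly lie close together.

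Summed over the family, the counts were 74948, 68802, 75840 and 71911, which is 0.391%, 0.380%, 0.381% and 0.376% of all counts. Thus the family's share of the library moved little with genotype or OVA. The family's summed TPM was 3356, 3299, 3026 and 3420, lowest in OVA-induced WT lungs, where the CPM sum of 3916 was the highest of the 4 (3903, 3770, 3916 and 3688). This is a shift of scale. Between genotypes, the median log2 fold change (log2FC, Rab44-KO over WT) of all genes was 0.33 higher in TPM than in CPM under OVA-induced conditions, and 0.03 higher under normal conditions. The log2FC values below are of CPM.

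Under normal conditions, the family differed little between Rab44-KO and WT lungs. Of the 57 genes that reached 10 counts in either library, 0 were over 2-fold apart, against 4.77% of all genes. Among the 47 that reached 100 counts, 0 were over 1.5-fold higher in Rab44-KO, against 1.37% of all genes, and 0 over 1.5-fold lower, against 0.577%. The median log2FC was -0.01 for the 57 genes and 0.00 for all genes. Within 1.25-fold stood 46 of the 47 (97.9%), compared with 89.6% of all genes. The exception was Rab6b, a Rab6 paralog of retrograde Golgi transport best known from neurons, described below.

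Smaller normal differences with an interval off 0 were found in both directions. Rab32 had 344 counts in the WT and 267 in the Rab44-KO library (log2FC -0.29, interval -0.53 to -0.06). Rab29, a paralog of Rab32 at lysosomes and the Golgi, had 319 and 254 counts (-0.26, -0.50 to -0.01). Rab22a, of early endosomes, had 836 and 679 counts (-0.23, -0.38 to -0.08). Rab8a, which brings vesicles to the cell surface, was at 1521 and 1235 counts (-0.23, -0.34 to -0.12). Among those higher in Rab44-KO, Rab15, of receptor recycling, had 550 and 592 counts (0.18, 0.01 to 0.35) and Rab8b, the paralog of Rab8a, 1487 and 1529 (0.11, 0.01 to 0.22). For Rab20, at 180 and 202 counts, Rab7b, at 312 and 328, and Rab21, at 1145 and 1179, the interval included 0 or touched it. Of all 57 genes, 12 had an interval below 0 and 4 above, against 2767 and 2735 of all 18718 genes.

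Under OVA-induced conditions, more of the family was on the low side in Rab44-KO lungs. Of the 57 genes, 38 were lower and 19 higher (33.3% higher, against 48.1% of all genes). The median log2FC was -0.15 against -0.02 for all genes. An interval below 0 was found for 27 and above 0 for 9, against 6515 and 5727 of all 19259 genes. In TPM, where all genes shift by 0.33, the family's median turned to 0.18. Only Rab19 was over 2-fold apart, against 15.7% of all genes. Among the 49 genes with at least 100 counts, 7 (14.3%) were over 1.5-fold lower, against 15.2% of all genes, and 0 were over 1.5-fold higher, against 12.2%. The lower share was thus near the background, while 33 of the 49 (67.3%) stood within 1.25-fold, against 45.5% of all genes.

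**Figure D2:**
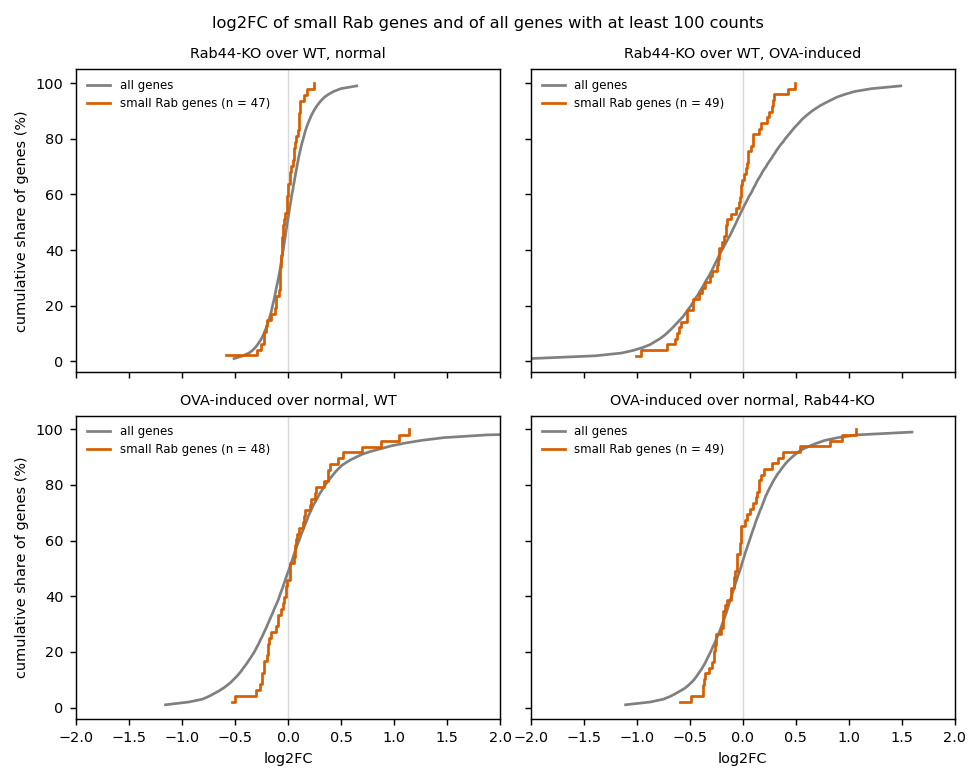
Cumulative share of genes (%) by log2FC in the 4 comparisons, for small Rab genes (orange steps) and for the 1st to 99th percentile of all genes (grey), both where either library reached 100 counts; the axis is cut at -2 and 2. The Rab genes span a narrower range than all genes between Rab44-KO and WT, with 67.3% within 1.25-fold under OVA-induced conditions against 45.5% of all genes.

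The genes over 1.5-fold lower in OVA-induced Rab44-KO lungs came from several compartments. Rab32, which serves lysosome-related organelles and phagosomes, had 17.9, 14.6, 37.1 and 19.0 CPM (344, 267, 718 and 370 counts). It stood highest in OVA-induced WT lungs by far, and the other 3 libraries lay close together (Rab44-KO over WT under OVA -0.97, -1.15 to -0.78). Rab19, of the Golgi and of autophagosome assembly, had 9.64, 9.15, 12.2 and 6.05 CPM (185, 167, 236 and 118 counts). It was lowest in OVA-induced Rab44-KO (-1.01, -1.34 to -0.68). Rab9, which returns mannose 6-phosphate receptors from late endosomes to the Golgi, had 35.9, 32.9, 41.8 and 25.4 CPM (690, 600, 809 and 495 counts; -0.72, -0.88 to -0.56). For Rab9 too the OVA-induced libraries were the highest and the lowest. Rab4b, of rapid receptor recycling, had 38.8, 37.2, 55.4 and 35.9 CPM (745, 679, 1073 and 700 counts; -0.63, -0.77 to -0.49), high in OVA-induced WT alone. Of its 150-base transcript windows, 44.4% are shared with Gm21983, so its counts are uncertain.

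Rab7b, which guides late endosomal traffic in myeloid cells, had 16.2, 17.97, 22.6 and 14.9 CPM (312, 328, 437 and 290 counts; -0.60, -0.82 to -0.38). Rab13, of tight junctions, had 315, 267, 355 and 238 counts (-0.59, -0.83 to -0.35). Rab37, a secretory granule Rab, had 70, 45, 156 and 101 counts (-0.64, -1.01 to -0.27) and was lower in Rab44-KO lungs under both conditions. Smaller differences were measured for abundant genes: Rab1b had 2855, 2603, 3325 and 2327 counts (-0.52, -0.60 to -0.45) and Rab8a 1521, 1235, 2020 and 1414 counts (-0.52, -0.62 to -0.43).

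Beside these values, the 8 monocyte and interstitial macrophage markers were all lower in Rab44-KO lungs under OVA, 5 of them over 2-fold, as were all 6 type 2 macrophage markers and all 10 T cell markers, over 2-fold for 6 and 6. Of the 10 eosinophil markers, 8 had enough counts and 7 of these were lower. The 8 alveolar macrophage markers, some of them also in the eosinophil and type 2 macrophage lists, summed to 757, 672, 5835 and 1272 CPM, with 6 lower and 2 higher in that comparison. These lists and Rab32 share their highest library, OVA-induced WT. What part infiltrating cells had in the Rab values was not tested.

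A smaller group was higher in OVA-induced Rab44-KO lungs. Rab6b, on chromosome 9 at 103111787 to 103185276 (GRCm38, GENCODE M21, plus strand), had 91.9, 61.3, 63.5 and 89.1 CPM (1765, 1119, 1230 and 1738 counts). It was lower in Rab44-KO under normal conditions (-0.58, -0.69 to -0.48) and higher under OVA (0.49, 0.38 to 0.60), so the genotype log2FC differed by 1.07 between conditions (counting interval 0.92 to 1.22). The high libraries were normal WT and OVA-induced Rab44-KO, and the low pair did not overlap them. Without the length trend described below, its OVA value was 0.18 and its normal value -0.61. The 6 platelet and megakaryocyte markers, at 60.9, 37.8, 48.4 and 94.1 CPM in sum, were also high in normal WT and OVA-induced Rab44-KO lungs. Of these markers, 5 of 6 were lower in Rab44-KO under normal conditions, 6 of 6 were higher under OVA, and none was at 0. Their part in the Rab6b values was not tested. The 6 neuron markers summed to 21.2, 15.8, 23.9 and 16.3 CPM, in another order. Rab2b, a Rab2a paralog, had 355, 356, 253 and 342 counts (0.43, 0.19 to 0.67), low in OVA-induced WT, but 47.8% of its windows are shared with Tox4 and Gm43766. Rab36, a Golgi Rab, had 238, 243, 255 and 315 counts (0.30, 0.05 to 0.54) and Rab10, of surface delivery, 2764, 2817, 2689 and 3269 counts (0.27, 0.20 to 0.35). The Rab3c value of 0.29 rests on 88 and 108 counts and its interval, -0.13 to 0.71, included 0.

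**Figure D3:**
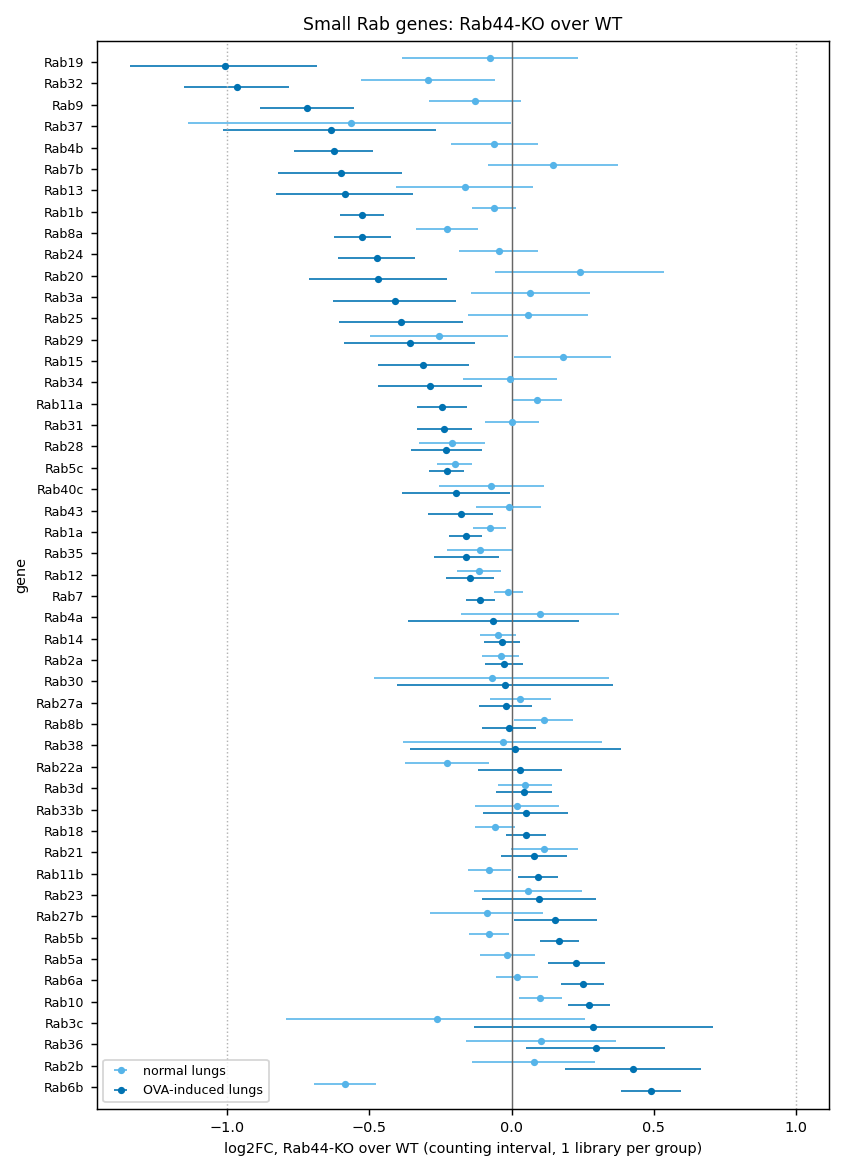
log2FC of Rab44-KO over WT (x axis) for the 49 small Rab genes with at least 100 counts in an OVA-induced library, in normal (light blue) and OVA-induced (dark blue) lungs, with counting intervals as bars; dotted lines mark 2-fold. Rab19 and Rab32 lie lowest under OVA at -1.01 and -0.97, and Rab6b lies on opposite sides of 0 in normal and OVA-induced lungs.

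The difference between genotypes under OVA followed gene length, and Rab transcripts are mostly short. The length implied by counts and TPM put the family at a median percentile of 36.6 of all genes. With all genes cut by length into 5 equal bins, from shortest to longest, the median log2FC of all genes with at least 100 counts was -0.49, -0.27, -0.07, 0.13 and 0.37, and that of the Rab genes -0.40, -0.18, 0.05, -0.01 and 0.22 (14, 14, 10, 7 and 4 genes). After this trend of all genes was removed, an alternative chosen after seeing the data, the median of the 57 was 0.00, with 28 genes higher and 28 lower. Rab32 then stood at -0.68, Rab19 at -0.77, Rab37 at -0.84 and Rab7b at -0.74, so these remained low. Rab9 (-0.37), Rab4b (-0.21), Rab13 (-0.24), Rab1b (-0.27) and Rab8a (-0.24) moved closer to 0, as did Rab6b, from 0.49 to 0.18. Of the 36 genes with an interval off 0, 9 changed sign: Rab11b, Rab12, Rab1a, Rab25, Rab27b, Rab35, Rab40c, Rab5c and Rab7. Between genotypes in normal lungs the same medians ran only from -0.06 to 0.05. For OVA-induced over normal they ran in opposite directions, from 0.20 to -0.21 in WT and from -0.20 to 0.12 in Rab44-KO lungs.

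**Figure D4:**
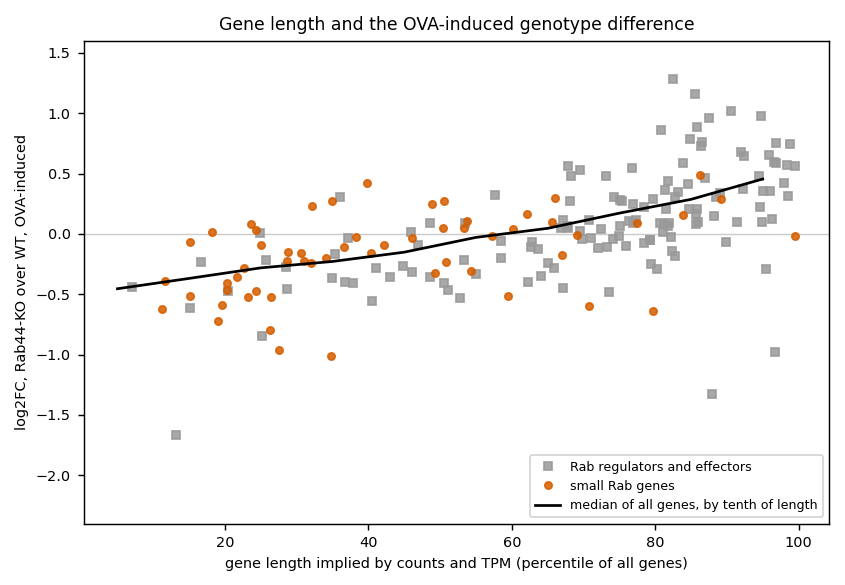
log2FC of Rab44-KO over WT in OVA-induced lungs against gene length (percentile of all genes) for small Rab genes (orange) and 135 of their regulators and effectors (grey squares), with the median of all genes in 10 equal bins of length (line); Rph3a, at 32 and 0 counts, is not drawn. The line climbs from -0.45 to 0.45, and Rab32 and Rab19 lie well below it.

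Between the OVA-induced and normal libraries, a few members differed strongly and most hardly. In WT lungs, Rab32 and Rab37 were over 2-fold from normal, 2 of 57 genes against 14.2% of all genes. Among the 48 with at least 100 counts, Rab20, Rab27b, Rab32 and Rab37 (8.33%) were over 1.5-fold higher, against 11.1% of all genes, and 0 were over 1.5-fold lower, against 7.77%. In Rab44-KO lungs, 3 of 57 were over 2-fold apart, against 10.3% of all genes: Rab37 higher, and Rab17 (42 and 22 counts) and Rab26 (16 and 7 counts) lower. There Rab27b, Rab37 and Rab3c were over 1.5-fold higher, 3 of 49 (6.12%) against 6.71% of all genes, and Rab19 over 1.5-fold lower, 1 of 49 (2.04%) against 6.1%. The WT and Rab44-KO responses use separate libraries, but share them with the genotype comparisons.

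Rab27b and Rab37 were higher with OVA in both genotypes. Rab27b, which docks secretory granules, had 23.2, 21.8, 37.6 and 41.9 CPM (445, 398, 729 and 816 counts), with log2FC of OVA-induced over normal of 0.70 (0.53 to 0.87) in WT and 0.94 (0.77 to 1.12) in Rab44-KO lungs. For Rab37 these were 1.14 (0.73 to 1.57) and 1.07 (0.55 to 1.61). Rab27a, the paralog that also moves melanosomes and lytic granules, was higher by less, from 1431 and 1390 counts to 1879 and 1865 (0.38 and 0.33). For these granule Rabs both OVA-induced libraries lay above both normal ones, also without the length trend (0.83 and 0.84 for Rab27b, 1.23 and 0.97 for Rab37, 0.36 and 0.34 for Rab27a). Neutrophil markers, at 76.2, 98.5, 467 and 565 CPM, had the same order of conditions. So did mast cell and basophil markers (186, 170, 234 and 324 CPM), of which 6 of 8 were higher in WT and 4 of 5 in Rab44-KO. B cell markers (210, 163, 433 and 273 CPM) and the eosinophil, T cell and macrophage sums given above had it too. The goblet, endothelial and heart muscle sums did not. The part of these cells in the Rab values was not tested.

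Other Rabs were higher in the OVA-induced WT library without a like value in Rab44-KO. Rab32 had a log2FC of 1.05 (0.86 to 1.24) in WT and 0.38 (0.14 to 0.61) in Rab44-KO, a difference of -0.67 (counting interval -0.97 to -0.38). Rab20, an interferon-inducible Rab of phagosomes, had 180, 202, 334 and 243 counts, with 0.88 (0.61 to 1.15) in WT and 0.17 (-0.10 to 0.45) in Rab44-KO. Of its windows, 16.7% are shared with the antisense gene E230013L22Rik. Rab4b stood at 0.51 (0.38 to 0.65) and -0.05 (-0.21 to 0.10). For Rab19, Rab9 and Rab7b the values had opposite signs, 0.34 and -0.60, 0.22 and -0.37, and 0.47 and -0.27. The WT value of Rab9 was 0.0421 in TPM and 0.0496 without the length trend, close to 0, and that of Rab19 0.16 and 0.22. These are differences between single libraries, and the differences between genotypes have counting intervals only, -1.37 to -0.50 for Rab19, -0.82 to -0.36 for Rab9 and -1.06 to -0.44 for Rab7b.

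**Figure D5:**
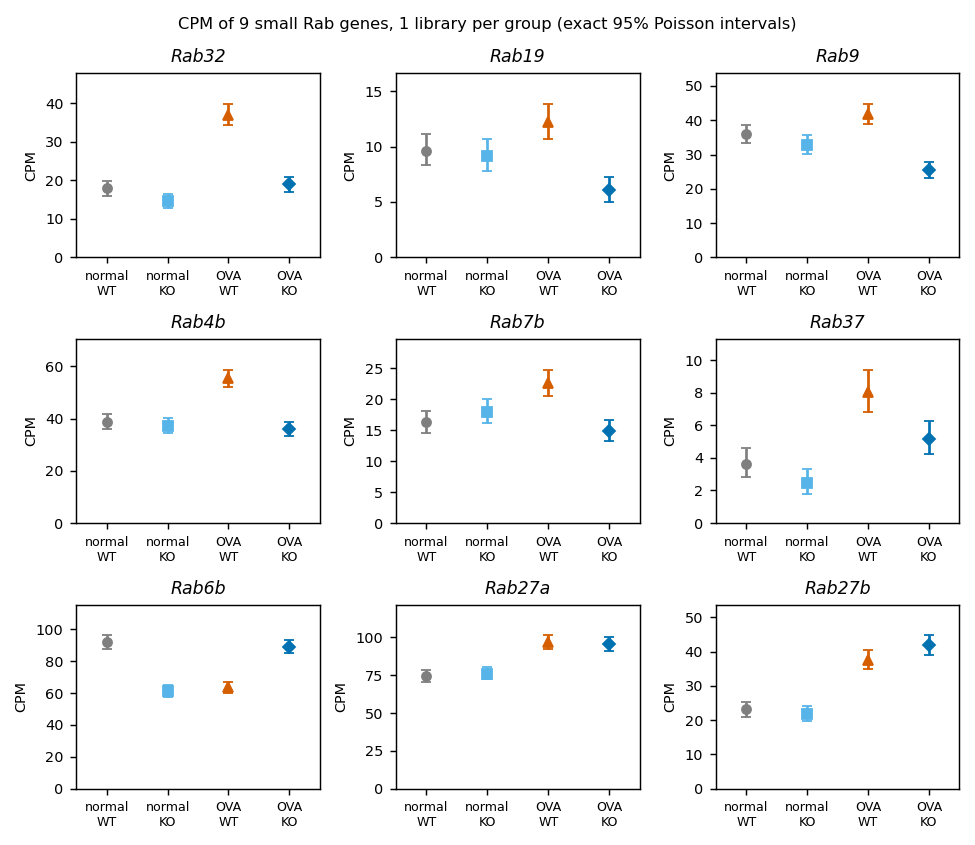
CPM of 9 small Rab genes in the 4 libraries, 1 point per library with exact 95% Poisson intervals (counting error only), each panel from 0. Rab32, at 37.1 CPM in OVA-induced WT against 14.6 to 19.0 CPM elsewhere, has 1 high library, whereas Rab27a and Rab27b are higher in both OVA-induced libraries.

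The remaining granule and lysosome-related Rabs had values of both signs for OVA-induced over normal lungs. Rab3d, of zymogen and mast cell granules, had 1857, 1824, 1649 and 1711 counts, slightly lower with OVA in both genotypes (-0.18 and -0.19). Rab3a, of synaptic and dense-core vesicles, had 380, 378, 412 and 312 counts. Its log2FC of Rab44-KO over WT under OVA was -0.41 (-0.63 to -0.19), but -0.08 both in TPM and without the length trend, and that of Rab29 went from -0.36 to -0.03 and -0.06. Rab3b had 8, 12, 12 and 13 counts and Rab26, of granule recruitment, 9, 16, 10 and 7, too few to rank. Rab3c had 72, 57, 88 and 108 counts, with a log2FC of OVA-induced over normal of 0.28 (-0.19 to 0.75) in WT and 0.83 (0.35 to 1.32) in Rab44-KO lungs. Rab38, a paralog of Rab32 in lysosome-related organelles, had 143, 133, 123 and 125 counts, and Rab29 319, 254, 355 and 279. Rab38 thus lacked the OVA value of Rab32, with a log2FC of -0.23 (-0.59 to 0.13) in WT lungs.

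By role, the family's medians for Rab44-KO over WT under OVA were -0.60 for 3 late endosome and lysosome genes, -0.36 for 3 of lysosome-related organelles, -0.24 for 11 of recycling and surface delivery, -0.06 for 11 of early endosomes and phagosomes, -0.06 for 16 of ER and Golgi transport and 0.01 for 8 of granule exocytosis, against -0.02 for all genes. Without the length trend these medians were, in the same order, -0.37, -0.06, -0.07, 0.11, 0.07 and -0.05. Of the 3 late endosome and lysosome genes, Rab7 then turned to 0.11, while Rab9 (-0.37) and Rab7b (-0.74) were below 0. In TPM, with its shift of 0.33 for all genes, the medians were -0.27, -0.03, 0.08, 0.26, 0.23 and 0.33. Cilium genes Rab23 and Rab28 were at 0.10 and -0.23. Lower in OVA-induced than normal lungs of both genotypes were Rab28 (1358, 1117, 1113 and 956 counts), Rab12, of transferrin receptor breakdown (2839, 2493, 2386 and 2170), Rab34, of cilia and lysosome positioning (620, 587, 543 and 448), and Rab23, of Hedgehog signalling (463, 458, 394 and 424). Rab25, the epithelial Rab11 paralog, had 378, 374, 402 and 309 counts and was low in OVA-induced Rab44-KO.

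Paralogs of early and recycling endosomes had values of both signs in Rab44-KO over WT under OVA, but not under every processing. Rab5a had 1778, 1672, 1532 and 1806 counts (0.23, 0.13 to 0.33) and Rab5b 3426, 3083, 3239 and 3664 counts (0.17, 0.10 to 0.24), both higher in Rab44-KO, while Rab5c, at 4693, 3884, 4659 and 4006 counts, was lower (-0.23, -0.29 to -0.17). All 3 direct early endosome fusion, and each interval was off 0, but Rab5c turned positive in TPM. Rab11a, the recycling endosome Rab, had 2181, 2208, 2293 and 1950 counts (-0.24, -0.33 to -0.16) and its paralog Rab11b 3120, 2810, 3114 and 3341 counts (0.09, 0.02 to 0.16). In TPM, Rab11a was also positive (0.0834), and without the length trend described above Rab11b was negative (-0.0717). Rab6a, the abundant Golgi paralog of Rab6b, had 3061, 2951, 2606 and 3121 counts (0.25, 0.18 to 0.33), low in OVA-induced WT, with 13.9% of its windows shared with Mrpl48. Unlike Rab6b, it differed little under normal conditions (0.02). Rab31, of phagosomes and trans-Golgi transport, had 1840, 1752, 1833 and 1567 counts (-0.24), and Rab24, linked to autophagy, 886, 816, 1068 and 774 (-0.47, or -0.21 without the length trend), with 33.2% of its windows shared with Prelid1. Rab14, Rab18, Rab33b, Rab35, Rab43, Rab4a, Rab30 and Rab40c all lay between -0.20 and 0.05 in that comparison. Of Rab43, 72.9% of windows are shared with Gm45140. Rab39, Rab39b, Rab40b and Rab42 had at most 89 counts.

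The regulators and effectors of the family were described in the same way. Of 138 listed regulators and effectors, 137 were in the table and 136 had enough counts under OVA, with a median log2FC of 0.08 for Rab44-KO over WT. By class, 22 of 34 GEFs, 19 of 36 GAPs, 13 of 18 Rab11 and Rab8 effectors, 9 of 11 Rab5 and Rab4 effectors, 8 of 14 Rab27 and Rab3 effectors, 6 of 15 Rab7 effectors and 2 of 8 genes of prenylation and GDI, which membrane-anchor and extract Rabs, were higher, compared with 48.1% of all genes. Without the length trend these counts were, in the same order, 14, 8, 11, 5, 7, 5 and 5. The regulator and effector genes are long, with a median length percentile of 76.6, and without the length trend the median was -0.09, beside 0.00 for the Rab genes. Over 2-fold apart were 6 of 136 (4.41%), against 15.7% of all genes with at least 10 counts. Among the 13704 genes with at least 100 counts, 499 were over 2-fold higher and 595 lower, a smaller share. The higher 3 were Dennd2c, a DENN-domain GEF, at 102 and 229 counts (1.16), Dennd5b, of the same family, at 503 and 1028 (1.02), and Myrip, which links Rab27 to myosin, at 299 and 734 (1.29). Without the length trend these stood at 0.87, 0.69 and 0.999 and none was over 2-fold. The lower 3 were Rilpl2, a Rab effector of the RILP family, at 653 and 207 counts (-1.67), Rab3il1, a GEF that binds Rab3a, at 441 and 177 (-1.33), and the Rab3 effector Rph3a at 32 and 0. Myo5a, the myosin that carries Rab27a vesicles, had 1570 and 802 counts (-0.98), after 539 and 628 in normal lungs. Among early endosome effectors Eea1 had 960 and 1782 counts (0.88), and among late endosome effectors Fyco1 had 1090 and 2134 (0.96). Without the length trend Eea1 stood at 0.58 and Fyco1 at 0.62, while Myo5a stood at -1.44, past 2-fold, Rab3il1 at -1.67 and Rilpl2 at -1.25. Under normal conditions, 136 partners had enough counts, not all the same genes as under OVA. Of these, 0 were over 2-fold higher and 2 lower (1.47%), against 4.77% of all genes. Among the 13166 genes with at least 100 counts, 44 were over 2-fold higher and 11 lower.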

How the data were processed

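Lung RNA was measured in 4 libraries, 1 per group, grouped by the genotype and treatment labels. Per the labels and methods, the authors aligned paired-end reads of 150 bp with HISAT2 to GRCm38 after trimming, took gene counts with featureCounts (versions not given in the sources used here) and deposited raw counts. The authors also deposited TPM, the counts per gene length scaled to the library. The methods name DESeq2 for the authors' comparisons. Libraries were made with a directional kit, but the strand setting of the counting is not given, and 15 members have an antisense exon overlap. 
Members, roles and partner lists were chosen with earlier results of these data known. Counts were scaled by TMM (edgeR 4.0.16, R 4.3.3) over the 4 libraries, and log2FC used a prior count of 0.125 and a minimum of 10 counts in either library compared. Ratios have exact 95% Clopper-Pearson intervals, differences of log2FC a normal approximation and CPM exact Poisson intervals, all for counting error only. A gene under 10 counts in both libraries was given no fold, except in the alternative with a minimum of 1 count. Named members were those over 2-fold with at least 100 counts, the 5 of largest rise and fall per comparison, the 5 of highest TPM and the granule and lysosome-related Rabs, with Rab44 once. Partners named were among the 3 of largest absolute log2FC per list and comparison. The remaining members and Rph3a were named to account for the family or after their values were seen. Alternatives were DESeq2 1.42.0 size factors, total counts, TMM on the pair, a prior count of 2, TPM with a pseudocount of 0.1, minimums of 1, 50 and 100 counts, 1.5-fold, and intervals wholly beyond 2-fold. Added after seeing the data were 1.5-fold with 100 counts, TPM less its median shift, and removal of the length trend, a running median over genes ordered by length. Python 3.11.15, numpy 2.4.6, pandas 2.3.3, scipy 1.17.1 and matplotlib 3.10.9 were used. On simulated counts over 41079 genes, with counting error only, all 200 genes changed 4-fold were recovered in each comparison. These 200 were drawn from genes with at least 100 expected counts, so recovery at lower counts was not examined. Of unchanged genes, 299 to 344 also passed 2-fold with a minimum of 10 counts. Gene starts in the table equal GENCODE M21 starts for 0.86% of matched genes, so the table's positions were not used. Shared 150-base windows were counted in GENCODE M21 transcripts.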

Additional observations from a re-analysis of the deposited data

Results flagged for a closer look

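For 5 genes, the log2FC of Rab44-KO over WT pointed one way in the normal libraries and the other way in the OVA-induced libraries, with both counting intervals off 0. It was -0.58 under normal and 0.49 under OVA-induced conditions for Rab6b, 0.18 and -0.31 for Rab15, 0.091 and -0.24 for Rab11a, -0.0777 and 0.092 for Rab11b, and -0.0789 and 0.17 for Rab5b. How many of all genes had such opposite signs is not given here. Of the opposite signs of these 5 genes, 3 were lost under another processing. In TPM, which shifts all genes by 0.33 in the OVA-induced comparison, Rab15 stood at 0.0171 and Rab11a at 0.0834, and without the length trend Rab11b stood at -0.0717.

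For 7 genes, the log2FC of OVA-induced over normal pointed up in one genotype and down in the other, again with both counting intervals off 0. Opposite signs with an interval that spans 0 are not counted here. In WT and in Rab44-KO lungs it was -0.53 and 0.54 for Rab6b, 0.34 and -0.60 for Rab19, 0.47 and -0.27 for Rab7b, 0.22 and -0.37 for Rab9, 0.21 and -0.26 for Rab1b, 0.26 and -0.17 for Rab24, and -0.0935 and 0.15 for Rab5b. In TPM and without the length trend all 7 kept these signs. The WT values came close to 0 for Rab9 (0.0421 and 0.0496), Rab1b (0.0325 and 0.10) and Rab24 (0.082 and 0.14). For Rab24 the Rab44-KO values did too (-0.0462 and -0.0897). Of Rab24, 33.2% of transcript windows are shared with Prelid1. How many of all genes had such opposite signs is not given here. Among all genes, the interval spanned 0 for 8254 of 19023 in WT and for 9155 of 19073 in Rab44-KO lungs. Each value compares 2 single libraries, and none of these differences was tested.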

How the results depend on the processing

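No paired analysis was possible because each group has 1 library. For the same reason no replicate could be left out. Of the 140 log2FC values of named genes, DESeq2 size factors, TMM on the 2 compared libraries, a prior count of 2 and TPM less its median shift moved 0 beyond the counting interval, total counts moved 3, TPM moved 53 and reversed 10, and removal of the length trend moved 31 and reversed 7.

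Counts of genes over 2-fold were small and moved with most settings. For Rab44-KO over WT under normal conditions, the 0 higher genes became 3 at 1.5-fold. They became 1 with a minimum of 1 count, which adds Rab9b alone, at 0 and 3 counts. Under OVA-induced conditions, the 1 lower gene, Rab19, became 0 with total counts, a prior count of 2 or TPM. The count was also 0 with intervals wholly beyond 2-fold or the length trend removed. It was 8 at 1.5-fold, 7 at 1.5-fold with 100 counts and 2 with a minimum of 1 count, which adds Rab9b at 2 and 0 counts. For OVA-induced over normal in WT, the 2 higher genes became 0 with TPM or intervals wholly beyond 2-fold, 1 without the length trend, 6 at 1.5-fold and 4 at 1.5-fold with 100 counts. In Rab44-KO, the 1 higher gene became 2 with TPM, 4 at 1.5-fold, 3 at 1.5-fold with 100 counts, and 0 with whole intervals or without the length trend. The 2 lower genes there became 1 with a prior count of 2, TPM, the length trend removed or 1.5-fold with 100 counts, 5 at 1.5-fold, and 0 with minimums of 50 or 100 counts or whole intervals.

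In TPM, the family's median log2FC turned from -0.15 to 0.18 for Rab44-KO over WT under OVA, following the shift of all genes. It also turned from 0.06 to -0.12 for OVA in WT and from -0.0866 to 0.0386 for OVA in Rab44-KO. Without the length trend, it turned from 0.06 to -0.0243 for OVA in WT. For Rab44-KO over WT under normal conditions it then turned from -0.0123 to 0.0182. For Rab44-KO over WT under OVA, of the 36 genes with an interval off 0, 12 turned sign in TPM and 9 without the length trend. The sign reversed in TPM for Rab11a (0.0834), Rab31 (0.0908), Rab35 (0.17), Rab40c (0.13), Rab43 (0.15), Rab12 (0.18), Rab15 (0.0171), Rab1a (0.17), Rab28 (0.10), Rab34 (0.0396), Rab5c (0.10) and Rab7 (0.22), and without the length trend for Rab11b (-0.0717), Rab35 (0.0961), Rab40c (0.0357), Rab12 (0.13), Rab1a (0.0326), Rab25 (0.0577), Rab27b (-0.12), Rab5c (0.0535) and Rab7 (0.11). For OVA over normal, it reversed in WT for Rab1a (-0.11 in TPM, -0.0243 without the trend) and in Rab44-KO for Rab2a (0.0386) and Rab7 (0.0487) in TPM. Why fold changes followed length was not tested.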
